A study of Mus musculus with 4 samples.

Results

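The regions described here are the 500 tallest peaks of each of 4 RNA polymerase II (Pol II) ChIP-seq libraries, 2000 peaks of the 387843 that lay on chromosomes 1 to 19 and X. They were chosen by the summit pileup, the number of sequenced fragments that overlap the highest base of a peak, with ties broken by position. The libraries came from brain endothelial cells (ECs), 2 from old WT Cre mice and 2 from young EC-K4KO mice. Chromatin was immunoprecipitated with an antibody against RNA Polymerase II after MNase digestion, and peaks were called in each library on its own, without a control library. EC-K4KO mice carry CDH5-CreERT2, a tamoxifen-inducible Cre driven by the endothelial Cdh5 promoter, together with floxed Klf4. WT Cre mice carry the Cre alone, so the Cre transgene is common to both groups, while the Klf4 deletion and the age differ together and cannot be told apart. The libraries are called WT1 and WT2 (old WT Cre replicates 1 and 2) and KO1 and KO2 (young EC-K4KO replicates 1 and 2), and where 4 values follow each other they stand in the order WT1, WT2, KO1, KO2. The methods speak of biological replicates, and neither they nor the labels say whether each library came from its own animal, so p-values measure only the spread between these samples.

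Pol II transcribes protein-coding genes and many noncoding RNAs, and in ChIP-seq it usually piles up just downstream of active promoters. Mouse centromeres lie at one end of each chromosome and are flanked by major satellite, a tandem array of 234-bp units packed as heterochromatin. Most of these arrays are missing from the assembly, and fragments from many copies can then fall on the few copies it holds. Ribosomal RNA genes, telomere repeats and other tandem arrays are in the same position. What the tallest peaks lie on was therefore read from the assembly: its soft-masked (repeat-annotated) bases, the number of places where each 31-mer of a peak occurs, and the distance from the centromeric gap.

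The sequence at the tallest summits is shown first, because a single repeat family carried most of the height. The 234 bases centred on the summits of the 2 tallest loci (chr2:98667041-98667274 and chr12:3109844-3110077, GRCm38, plus strand) are printed below with capitals where a base lies in a 21-mer that also occurs, on either strand, in an array at the start of the assembled part of chromosome 9 (chr9:3000010-3038297). In the chromosome 9 window, 1 unit of that array (chr9:3032336-3032569, plus strand), capitals mark bases that are the same 234 bp further on. Capitals covered 96.6% of the first window and 82.1% of the second, and in the chromosome 9 window 95.3% of bases recurred at the next unit.
tallest locus: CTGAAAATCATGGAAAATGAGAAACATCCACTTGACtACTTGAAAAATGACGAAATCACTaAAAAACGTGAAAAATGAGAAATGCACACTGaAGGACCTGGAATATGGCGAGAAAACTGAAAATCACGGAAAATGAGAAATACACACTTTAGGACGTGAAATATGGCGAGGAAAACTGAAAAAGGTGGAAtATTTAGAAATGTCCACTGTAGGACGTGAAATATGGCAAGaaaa
second tallest locus: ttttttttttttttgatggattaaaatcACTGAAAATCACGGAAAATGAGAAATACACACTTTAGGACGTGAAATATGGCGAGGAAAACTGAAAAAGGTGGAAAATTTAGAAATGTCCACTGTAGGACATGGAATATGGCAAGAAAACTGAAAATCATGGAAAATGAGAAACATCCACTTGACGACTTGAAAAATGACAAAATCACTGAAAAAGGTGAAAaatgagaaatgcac
chromosome 9 array: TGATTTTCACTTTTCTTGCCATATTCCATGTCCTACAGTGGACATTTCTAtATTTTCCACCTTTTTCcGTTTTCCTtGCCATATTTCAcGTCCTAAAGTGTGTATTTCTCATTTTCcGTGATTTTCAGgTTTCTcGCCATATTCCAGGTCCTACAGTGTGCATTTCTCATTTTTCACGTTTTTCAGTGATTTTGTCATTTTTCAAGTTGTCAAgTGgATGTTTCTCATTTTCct

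Height was concentrated in very few loci in all 4 libraries, and the share of fragments it held was several-fold larger in old WT Cre than in young EC-K4KO. The summit pileups of the tallest 500 summed to 24.0%, 26.1%, 6.26% and 3.65% of the fragments of their library. The group means were 25.1% ± 1.53 and 4.96% ± 1.84 (SD, n = 2 each). Both old WT Cre libraries stood above both young EC-K4KO libraries. Because pileup chose the peaks, these values are a description with no test. The tallest peak alone held 14.6%, 15.3%, 3.36% and 1.73% of fragments, and without it the sums were 9.41%, 10.8%, 2.9% and 1.92%. The 10 tallest peaks held 94.7%, 94.4%, 91.9% and 83.3% of the sum over 500. The 450 peaks below the tallest 50 together held 0.162%, 0.186%, 0.201% and 0.307% of fragments, so that beyond the first 50 peaks the order of the groups turned round. If no 2 fragments at the tallest summit had the same ends, fragments of up to at least 4376, 2899, 1538 and 887 bp would be needed there, against mean fragment sizes of 174, 162, 160 and 151 bp, and where ends are shared the pileups and shares can count copies of 1 molecule. The sums can count 1 fragment at neighbouring summits, and keeping 1 peak per 1000 bp gave 23.8%, 25.9%, 6.20% and 3.59%.

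**Figure D1:**
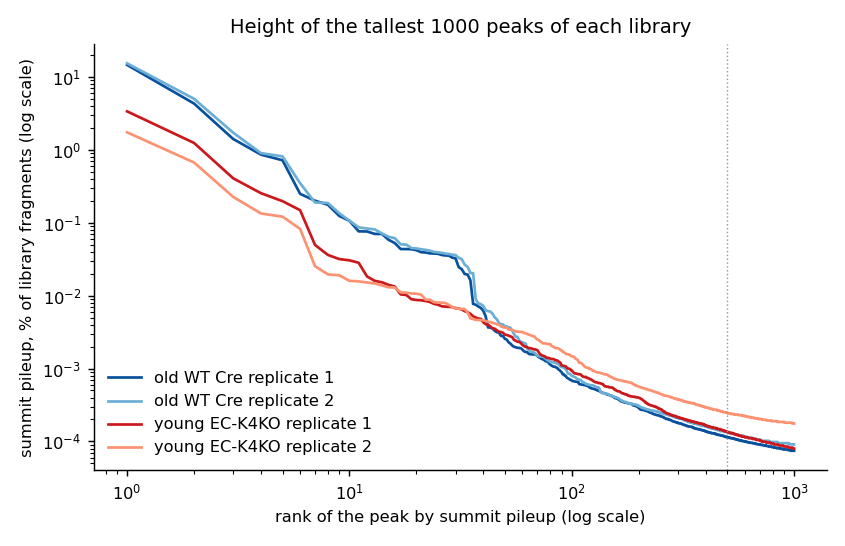
Summit pileup as a percent of the fragments of the library (log scale) against the rank of the peak (log scale) for the tallest 1000 peaks of each library, with a dotted line at rank 500. The old WT Cre lines start at 14.6% and 15.3% and the young EC-K4KO lines at 3.36% and 1.73%, and at ranks 100 and 500 KO2 is the highest line.

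The lower limit of the 500 was shallow. The pileup at rank 500 was 75, 37, 48 and 56 fragments, and the next peak had the same pileup in every library. Between 5 and 15 peaks inside the limit and between 1 and 7 outside it shared that value, so their place was set by position alone. The median pileup of the 500 was 147, 68, 97.5 and 102 fragments. The median width was 382, 366, 347 and 335 bp. Height and enrichment over the local background differed as measures, since 250, 276, 216 and 176 of the 500 tallest were also among the 500 highest in fold enrichment.

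The same loci led every library. The peak on chromosome 2 (chr2:98666549-98667332) was at rank 1, the one on chromosome 12 (chr12:3109869-3110120) at rank 2, one on chromosome 14 (chr14:19416892-19417945) at rank 3 and one on chromosome 9 (chr9:35305226-35305591, within the predicted gene Gm33838) at rank 4 in all 4 libraries. The chromosome 12 locus held 4.3%, 5%, 1.24% and 0.668% of fragments, and the chromosome 14 locus 1.4%, 1.71%, 0.406% and 0.226%. The chromosome 9 locus held 0.858%, 0.898%, 0.254% and 0.134%. At each of the 3, both old WT Cre libraries were above both young EC-K4KO libraries. A second chromosome 14 locus (chr14:19418729-19418970) was at rank 5 in WT1 and WT2 and at rank 6 in KO1 and KO2, where rank 5 went to a second chromosome 2 locus (chr2:98662238-98662400) that was not called in old WT Cre. That locus held 0.197% and 0.121% of fragments in young EC-K4KO. All 6 shared between 37.7% and 90.1% of their 21-mers with the chromosome 9 array, and 5 of them lay more than 16 Mb from the centromeric gap of their chromosome. A peak of the chromosome 12 locus began 109871 bp from its own.

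The loci with satellite sequence held most of the height in every library, and those found in all 4 lists stood higher in old WT Cre. When overlapping peaks of the 4 lists were merged, 849 loci resulted, and 43 of them shared at least 10% of their 21-mers with the chromosome 9 array, 30 inside it and 13 elsewhere. Summed over the loci of each list, they held 23.5%, 25.4%, 5.96% and 3.14% of fragments, with group means of 24.4% ± 1.38 and 4.55% ± 2 (SD, n = 2 each) and a ratio of 5.38. The other loci held 0.46%, 0.583%, 0.285% and 0.487%, and there the groups overlapped. A single locus within Chl1 made up much of the old WT Cre sums, and without it they were 0.211%, 0.235%, 0.254% and 0.471%, with KO1 and KO2 above WT1 and WT2. Of the 34 satellite loci present in all 4 lists, 34 were higher in both old WT Cre libraries than in both young EC-K4KO libraries in pileup per 1000000 fragments of the library (FPM), with medians of 433, 446, 88.1 and 42.9. These 34 share sequence with the same array, so they are not separate measurements of that order. Of the 199 other loci in all 4 lists, 4 followed that order and 103 the reverse, and 92 overlapped. Over the 2138 regions with a peak in all 4 libraries, 4.72% were higher in WT1 and WT2 than in either young EC-K4KO library, and 27% were higher in KO1 and KO2. A share of fragments at one locus depends on the share taken by all others. With the summed pileups of the 500 taken out of the denominator, the 199 other loci divided into 11 (5.53%) and 64 (32.2%), and the 34 satellite loci kept their order. The shares over the 2138 regions keep the full denominator, so they are not a like measure to these. The 4 exceptions were a locus within Chl1, a neural adhesion molecule gene (chr6:103649049-103649292), a locus within Mdga2, a locus in Cldn34d and an intergenic locus on chromosome 10. The Chl1 locus shared no 21-mer with the array and stood at 2485, 3477, 317 and 160 FPM. The Mdga2 locus shared 9.30%, just under the limit used, and stood at 75, 76.3, 29.1 and 14.2 FPM.

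**Figure D2:**
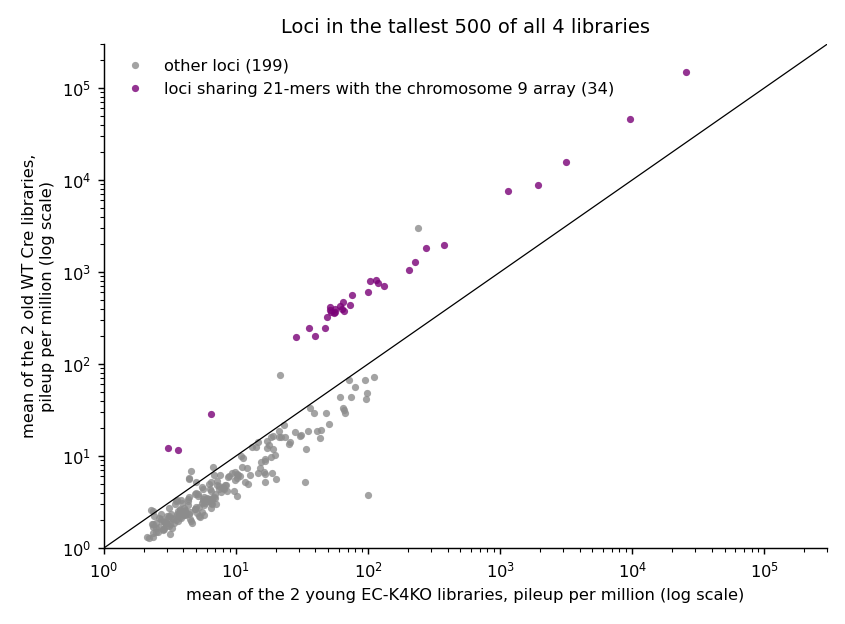
Mean pileup in FPM of the 2 old WT Cre libraries (log scale) against the mean of the 2 young EC-K4KO libraries (log scale) for the 233 loci in the tallest 500 of all 4 libraries, with the line of equality. All 34 loci that share 21-mers with the chromosome 9 array lie above the line, and most of the 199 other loci lie on or below it.

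The tallest locus of ribosomal DNA stood in the opposite order. A locus of 5832 bp on chromosome 17 (chr17:39842997-39848828) over AY036118 and Rn18s-rs5, a sequence related to small-subunit ribosomal RNA, was in all 4 lists at ranks 44, 46, 35 and 14. Its pileup was 35.4, 47.4, 56.3 and 138 FPM, with young EC-K4KO above old WT Cre in both libraries. A locus on chromosome 6 (chr6:3200866-3201620) that shared 70.5% of its 21-mers with it stood at 7.23, 12.1, 11.9 and 24.9, where the groups overlapped. Some other loci were named after their values were seen. At Rn7s1 and Rn7s2, which encode the 7SL RNA of the signal recognition particle, KO2 stood at 58.8 and 24.8 FPM and the other libraries at 1.48 or less. At a locus over tRNA genes and Fcgr3 (chr1:171063711-171065548), present in all 4 lists, the values were 1.14, 1.86, 1.48 and 3.52. At a locus over small nucleolar RNA genes of the host transcript Snhg14 (chr7:59771451-59771774) they were 2.65, 1.38, 3.07 and 3.92, and at Gm9919 on chromosome 10 they were 2.65, 2.29, 5.14 and 5.99. The chromosome 17 locus within Gm34259 (chr17:4626167-4626596), likewise named after its values were seen, was at rank 8 in KO2, at 195 FPM, against 2.02, 5.50 and 6.13 elsewhere.

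Repeat sequence was more frequent among the tallest peaks than among all peaks in every library, and it made up most of them in WT1, WT2 and KO1. Of the 500, 62%, 64.4%, 55.8% and 47.2% were at least 50% soft-masked, against 41.3%, 45.3%, 40.5% and 27% of all peaks of these libraries. Means were 63.2% ± 1.7 and 51.5% ± 6.08 (SD, n = 2 each), a difference of 11.7 percentage points (exact permutation of the 4 libraries, two-sided, p = 0.333, the lowest value that 2 against 2 allow). Both old WT Cre libraries were above both young EC-K4KO libraries. Among the next 500 peaks the share was 66.4%, 68.8%, 52.6% and 28%, so that KO2 stood apart there. Exact binomial 95% intervals of the 4 shares, which cover counting error alone, were 57.6 to 66.3%, 60 to 68.6%, 51.3 to 60.2% and 42.8 to 51.7%.

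Few of the tallest peaks had sequence found at a single place. A peak was counted as single-copy when at least 90% of its 31-mers occurred once in the assembly, and 6.8%, 5.8%, 6.4% and 14% of the 500 passed, against 52.3%, 49.1%, 53.1% and 69.4% of all peaks. The means of 6.3% ± 0.707 and 10.2% ± 5.37 (SD, n = 2 each) differed by -3.9 percentage points (exact permutation, two-sided, p = 0.667), and without KO2 by -0.1. Mitochondrial copies in the nuclear genome were nearly absent. In KO2, 0.2% of the 500 (1 peak) shared at least 10% of their 31-mers with mitochondrial DNA, and in the other libraries 0 of 500 did. With 0 of 500 the exact binomial interval, which takes peaks as independent, reaches 0.735%. Over all peaks the shares were 0%, 0%, 0.00284% and 0.00255%, and the group means of the 500 differed by -0.1 percentage points (exact permutation, two-sided, p = 1).

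Tandem repeats were a large class of their own. A peak was counted here when at least 70% of the bases in a 1000-bp window matched the base a fixed distance of up to 300 bp further on. Of the 500, 14.8%, 17.2%, 15.2% and 12.8% met this, against 1.64%, 3.43%, 2.7% and 0.733% of all peaks. Families of loci that share 21-mers had several periods besides the 234 bp of the satellite. A 208-bp period was the commonest in a family of 21 loci on 13 chromosomes, 2 of them in all 4 lists, and a 22-bp period in one of 12 loci on 4 chromosomes, 5 of them in all 4 lists. The largest family, of 253 loci on 20 chromosomes with 45 in all 4 lists, was joined by single linkage and had no common period in most of its loci. A 21-bp repeat family held 33 loci on 6 chromosomes, 23 of them in all 4 lists, and a 31-bp family held 17 loci on 3 chromosomes, 9 of them in all 4 lists. At least 3 telomere hexamers (TTAGGG on either strand) in a row stood in 20 loci. Stretches of the 21-bp and 31-bp repeats are printed with capitals at bases that recur 1 period further on, from chr17:3012929-3013012 and chrX:169994793-169994916 (GRCm38, plus strand), to show the units.
21-bp repeat: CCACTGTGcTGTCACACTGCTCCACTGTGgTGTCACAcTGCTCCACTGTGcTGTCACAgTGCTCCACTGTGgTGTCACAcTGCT
31-bp repeat: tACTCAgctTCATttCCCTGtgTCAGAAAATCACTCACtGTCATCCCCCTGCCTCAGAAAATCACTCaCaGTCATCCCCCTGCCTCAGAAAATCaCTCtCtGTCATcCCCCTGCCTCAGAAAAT

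The 31-bp loci included Tmem267 on chromosome 13, Asmt, which encodes the last enzyme of melatonin synthesis, and Mid1, an E3 ubiquitin ligase gene at the end of the X chromosome. The tallest by rank, at Tmem267 (chr13:119597696-119599369), stood at 19.2, 12.1, 42.9 and 43.8 FPM, so that both young EC-K4KO libraries were above both old WT Cre libraries. At Asmt (chrX:170672797-170673589) the order was the same, with 5.74, 5.50, 18.1 and 22.1. The tallest telomere-repeat locus (chr12:120028508-120029021, 31 hexamers in a row) stood at 4.21, 4.12, 13.5 and 5.9 FPM. Of the 25 loci joined to the telomere hexamers by shared 21-mers, 17, 14, 25 and 5 were among the tallest 500. A set of 22 loci on 11 chromosomes, masked at a median of 99.8% of bases and with a 5-bp period in 21, had 1 at Smo, the Hedgehog receptor subunit gene (chr6:29747856-29749068), and 19 members in all 4 lists. The Smo locus stood at 52.0, 61.2, 49.9 and 111, with KO1 below and KO2 above the old WT Cre pair.

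A second kind of multi-copy sequence was hardly marked as repeat. A set of 8 loci on 8 chromosomes shared 21-mers with one another, had a median masked share of 0%, and had 7 members in all 4 lists. Its tallest member lay in the overlap of Cmss1 and Filip1l on chromosome 16 (chr16:57391140-57391676), at 24.8, 37.8, 24.6 and 107 FPM, and its second in Jarid2, a cofactor gene of Polycomb repressive complex (chr13:44869572-44870010), at 14.8, 22.3, 24.1 and 45.8. Another set of 8, with 6 in all 4 lists, included loci in Zc3h7a, Gphn, the gephyrin gene, and Lars2, the mitochondrial leucyl-tRNA synthetase gene. At Lars2 (chr9:123461803-123462187) the values were 10.6, 8.16, 14 and 19, and at Zc3h7a (chr16:11143909-11144315) they were 15.9, 22.0, 14.8 and 68. KO2 was the highest at all 4 loci. KO1 was above both old WT Cre libraries at Jarid2 and Lars2 and below both at Filip1l and Zc3h7a. In all, 588 of the 849 loci (69.3%) shared at least 10% of 21-mers with another locus of the lists.

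**Figure D3:**
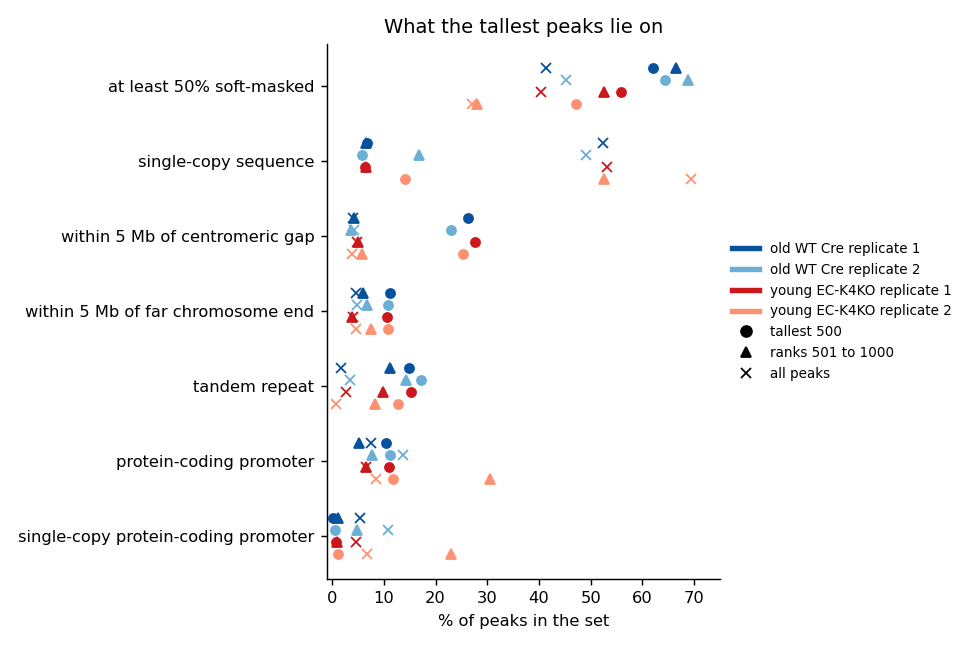
Percent of peaks with each property (horizontal axis) for the tallest 500 (circles), the next 500 peaks (triangles) and all peaks (crosses) of each library (colours). Circles lie to the right of crosses for soft-masked sequence, both chromosome ends and tandem repeats, and to the left for single-copy sequence and single-copy promoters.

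The tallest peaks gathered next to the centromeres. Of the 500, 26.2%, 23%, 27.6% and 25.4% lay within 5 Mb of the centromeric gap of their chromosome, against 4.1%, 4.26%, 4.76% and 3.78% of all peaks. With the 500 highest in fold enrichment the shares were 9.4%, 7.8%, 12.2% and 8%, and with the 250 tallest 41.2%, 35.6%, 44.8% and 35.6%. Most of these were within the first 1 Mb, at 25%, 21.6%, 26.2% and 24% of the 500. The group means, 24.6% ± 2.26 and 26.5% ± 1.56 (SD, n = 2 each), differed by -1.9 percentage points, under the SD of the old WT Cre pair (exact permutation, two-sided, p = 0.667). Among the next 500 peaks the share was 4.2%, 3.6%, 5% and 5.8%, close to that of all peaks. The loci near centromeres were not spread evenly over chromosomes. Of the 156 merged loci within 5 Mb of a gap, 47 lay on chromosome 11, 31 on chromosome 9, 21 on chromosome 4 and 16 on chromosome 17, and 5 of the 20 chromosomes had none. The far chromosome ends held 11.2%, 10.8%, 10.6% and 10.8% within 5 Mb, against 4.71%, 4.84%, 4.09% and 4.61% of all peaks.

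**Figure D4:**
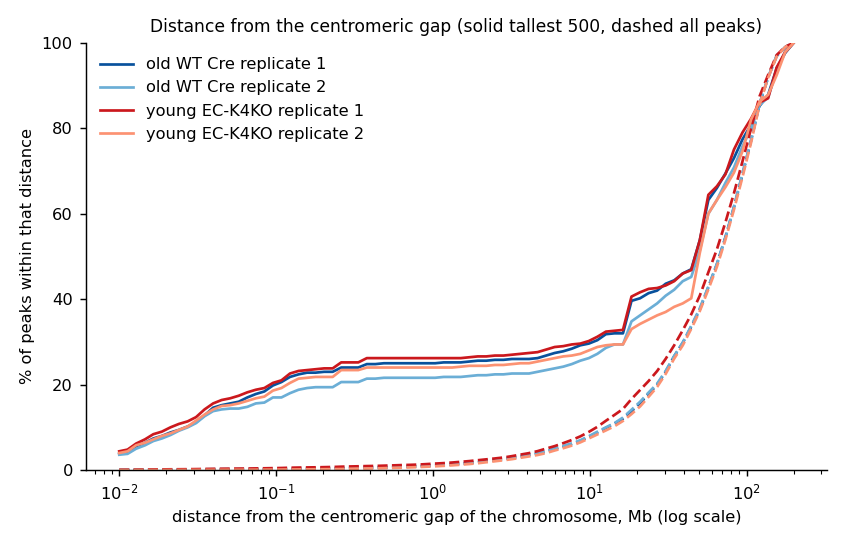
Percent of peaks within a given distance of the centromeric gap of their chromosome (log scale) for the tallest 500 (solid) and all peaks (dashed) of each library. Between 21.6% and 26.2% of the tallest 500 lie within 1 Mb, where the dashed lines are still near 1%.

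Neighbouring loci formed blocks. Joined at gaps of up to 100 kb, the 849 loci made 384 blocks, of which 323 were single loci, while 27 blocks of at least 5 loci held 437 loci (51.5%). The largest, of 60 loci on chromosome 6 (chr6:47653032-47778366), covered Rn4.5s, the 4.5S RNA gene, and predicted genes, with 31-mers present at a median of 17 places. It held 26, 22, 33 and 48 of the 500 tallest peaks. The next, of 47 loci on chromosome 11 (chr11:3100369-3200057), lay at the centromeric end of the assembled chromosome and covered Sfi1, a centrosome protein gene, and Pisd-ps1, with 40, 26, 36 and 31. The chromosome 9 satellite array followed, with 30 loci, 26 of them in all 4 lists. The Snhg14 snoRNA cluster on chromosome 7 (chr7:59731743-59866365) held 21 loci, with 11, 4, 19 and 8 of the tallest peaks. A zinc finger gene cluster on chromosome 4 (chr4:147124747-147432799) held 26 loci, with 11, 6, 18 and 6. In both of these KO1 had the most.

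A block of single-copy sequence held tall peaks in all 4 libraries, though none of its loci was in all 4 lists. It covered 92.3 kb of chromosome 1 (chr1:88212379-88304638) over the ends of the Ugt1a genes, which encode glucuronosyltransferases, with Mroh2a and Hjurp, which encodes the chaperone that places the centromeric histone CENP-A. Its 26 loci had a median of 100% of 31-mers found once, and 12, 11, 7 and 15 of the tallest 500 peaks lay in it. Called peaks inside had median pileups of 71, 36.5, 54 and 52.5 fragments, against 21.5, 11.5, 13 and 12 in the rest of the 300 kb on either side of its centre. Peaks were also denser inside, at 33.6, 23.8, 9.76 and 34.7 per 100 kb against 3.55, 1.58, 1.97 and 13. The block was joined from loci chosen by pileup, so these medians describe the choice and support nothing beyond it.

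A second single-copy block, over Cdh5, held tallest-500 peaks in 1 library. It covered 150.7 kb of chromosome 8 (chr8:104037047-104187742) with Cdh5, the VE-cadherin gene whose promoter drives the Cre in both groups, and Bean1. All 22 of its tallest-500 peaks were from KO2. Called peaks inside had median pileups of 22.5, 19.5, 34 and 48 fragments and highest pileups of 31, 26, 37 and 106, against medians of 19, 11, 15 and 13 in the rest of the 300 kb on either side. These rest on 12, 8, 7 and 66 called peaks inside. The edges of the block were set by the tallest-500 peaks of KO2, so its height in KO2 follows from the choice and is not a like measure to that of the other libraries. In KO2 the highest peak of the flanks reached 55, as the plot of both blocks shows. Whether the transgene contributes fragments to it was not tested. Since only called peaks carry a pileup, these medians leave out the sequence between them.

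**Figure D5:**
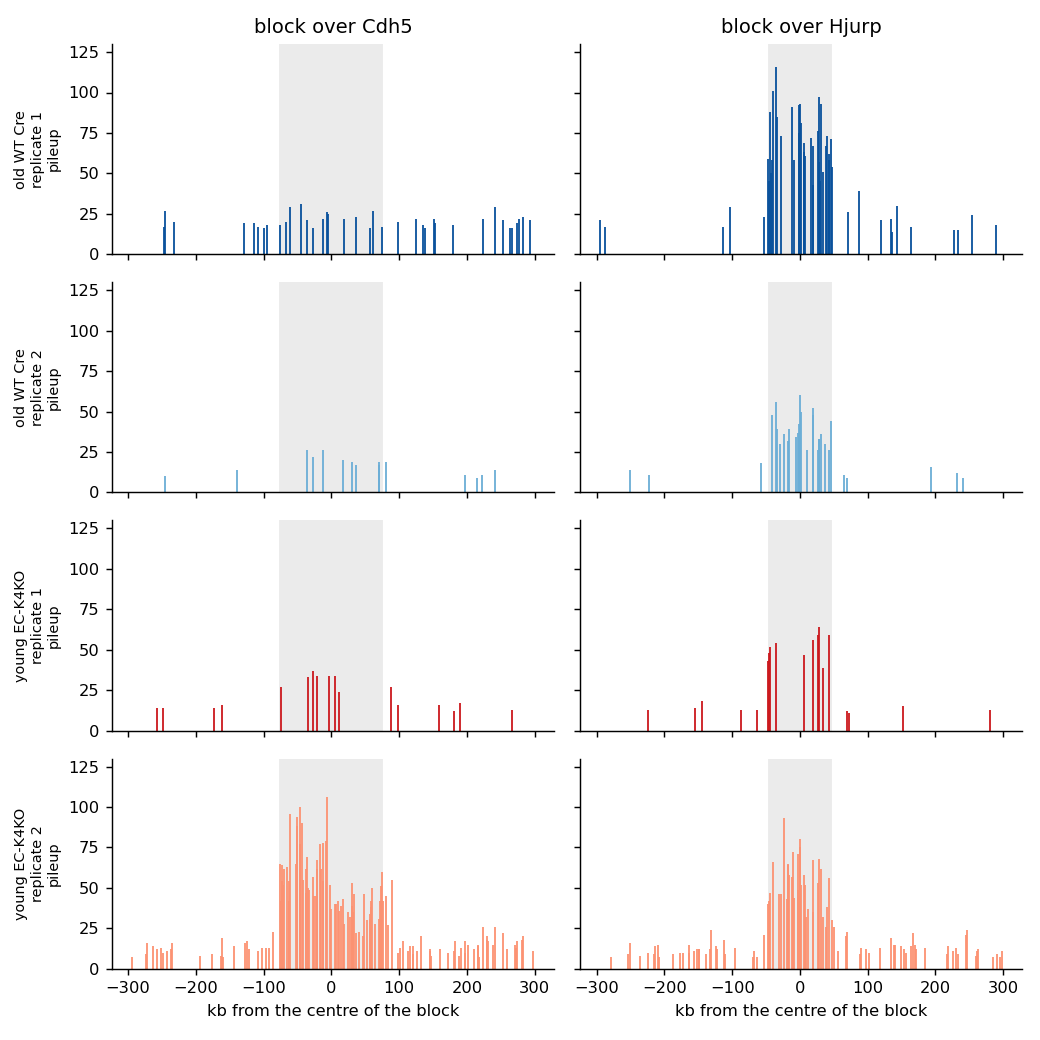
Pileup of called peaks in fragments against distance in kb from the centre of the block over Cdh5 (left) and the block over Hjurp (right) in each library, with the block shaded. Both blocks were joined from loci chosen by pileup. Medians inside the Hjurp block are 36.5 to 71, and the Cdh5 block reaches 106 in KO2 and at most 37 in the other libraries.

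Promoters were a small share of the tallest peaks, and in most of them the peak was not single-copy. A peak lay within 1500 bp of the start site of a protein-coding gene in 52, 56, 55 and 59 of 500, or 10.4%, 11.2%, 11% and 11.8%, against 7.47%, 13.7%, 6.46% and 8.55% of all peaks. Under 90% of the 31-mers of the peak were found once in 49, 52, 48 and 48 of these, and 29, 30, 27 and 30 were at predicted genes within the chromosome 9 satellite array. The means of 10.8% ± 0.566 and 11.4% ± 0.566 (SD, n = 2 each) differed by -0.6 percentage points (exact permutation, two-sided, p = 0.667). Promoter peaks where both the peak and the exons of the gene were single-copy numbered 1, 3, 4 and 6, at 1, 2, 3 and 6 promoters, or 0.2%, 0.6%, 0.8% and 1.2% of the 500, below the 5.47%, 10.8%, 4.65% and 6.81% of all peaks. Exact binomial 95% intervals, which take peaks as independent and cover counting error alone, reached 1.11%, 1.74%, 2.04% and 2.59%. Many of the peaks lay together in blocks, so these intervals are no test against the share of all peaks. The means of 0.4% ± 0.283 and 1% ± 0.283 (SD, n = 2 each) differed by -0.6 percentage points, with KO1 and KO2 above WT1 and WT2 (exact permutation, two-sided, p = 0.333). The order of the libraries changed with the list. With the 1000 tallest peaks the shares were 0.7%, 2.7%, 0.9% and 12.1%, with WT2 above KO1, and the difference was -4.8 percentage points. With the 500 highest in fold enrichment they were 0.2%, 1.4%, 1% and 12.8%, again with WT2 above KO1, and the difference was -6.1. None of the 250 tallest of any library was at such a promoter. Among the next 500 peaks, 1.2%, 4.8%, 1% and 23% were at such promoters.

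Hjurp had the single-copy promoter that recurred most. Its peak reached 67 fragments at rank 576 in WT1, 52 at rank 330 in WT2, 56 at rank 414 in KO1 and 67 at rank 395 in KO2, or 1.02, 1.89, 1.59 and 2.95 FPM. Fold enrichment there was 3.52, 6.28, 3.40 and 5.67. The promoter lies in the chromosome 1 block, where called peaks had medians of 71, 36.5, 54 and 52.5 fragments and reached 116, 60, 64 and 93. The Hjurp peak was thus not the highest of its block in any library. The promoter of Ugt1a1, the bilirubin-conjugating enzyme gene, lies in the same block and was in the list of KO1 at 48 fragments. A peak within Trpm8, the cold receptor gene, was in that of WT2 at 44. Its summit lay 1244 bp from the nearest start site, and the gene itself begins at chr1:88277661, before the peak (chr1:88304449-88304638). The predicted gene 4931408C20Rik reached 104, 20, 74 and 39 fragments, or 1.58, 0.728, 2.10 and 1.72 FPM, and was in the lists of WT1 and KO1. In FPM, KO2 was the highest at Hjurp and KO1 at 4931408C20Rik. Only KO2 had single-copy promoters outside these loci. They were the shared promoter of Cdc27, an anaphase-promoting complex subunit gene, and Myl4, a myosin light chain gene, with 88 fragments and a fold enrichment of 24.1, Cdh5 with 78 and 2.74, Hes2, a gene of the Hes family of repressors, with 60 and 9.34, Bag6, a chaperone gene, with 60 and 10.8, and Mvd, which encodes an enzyme of the mevalonate pathway, with 57 and 9.19. At Bag6, Hes2 and Mvd no other library had a peak, and at Cdh5 and at Cdc27 the 2 old WT Cre libraries had peaks of 26 fragments or fewer.

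The promoters of Hjurp (chr1:88277530-88277829, minus strand) and Mvd (chr8:122443373-122443672, minus strand), from RefSeq on GRCm38.p6, stand in contrast to the satellite windows. They are the 250 bases before and the 50 bases from the start site on, with capitals for the 204 and 154 bases under the peak of KO2.
Hjurp promoter: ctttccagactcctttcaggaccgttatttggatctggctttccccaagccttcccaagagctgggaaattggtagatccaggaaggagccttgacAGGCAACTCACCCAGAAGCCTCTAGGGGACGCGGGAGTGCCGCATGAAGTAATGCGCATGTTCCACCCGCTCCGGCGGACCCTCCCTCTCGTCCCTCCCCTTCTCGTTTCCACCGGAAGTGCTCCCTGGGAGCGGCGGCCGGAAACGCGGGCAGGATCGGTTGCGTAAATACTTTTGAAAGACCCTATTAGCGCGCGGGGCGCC
Mvd promoter: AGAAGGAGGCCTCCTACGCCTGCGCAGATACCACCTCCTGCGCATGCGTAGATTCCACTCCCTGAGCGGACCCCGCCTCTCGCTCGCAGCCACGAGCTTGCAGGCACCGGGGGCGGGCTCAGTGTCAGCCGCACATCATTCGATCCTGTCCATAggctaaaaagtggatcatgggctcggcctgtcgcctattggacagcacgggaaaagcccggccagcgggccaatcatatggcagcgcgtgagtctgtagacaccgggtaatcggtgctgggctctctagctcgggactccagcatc

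With 1 exception, genes listed as cell type markers or other known classes had no promoter peak among the tallest. Only 52, 56, 55 and 59 of the 500 were at any protein-coding promoter, against 21755 protein-coding genes. With so few, the near absence of the listed genes is not a result about cell types. Of 79 genes in 9 lists, which covered markers of brain endothelial, mural and neural cells and microglia, immediate early genes, housekeeping genes and abundant nuclear RNAs, 1 had a promoter peak in a tallest 500, which was Cdh5 in KO2. The summit of that peak lay 1528 bp from the start site and only its edge was within the window, inside the chromosome 8 block and at a fold enrichment of 2.74. The libraries differed widely in yield, with 78391, 39338, 35175 and 234939 peaks, and 25.8%, 24.7%, 10.7% and 68.1% of all 21755 protein-coding genes had a promoter peak of any height. The counts of the lists are a description against these shares, which do not cover the noncoding genes of the abundant nuclear RNA list. Of the 12 endothelial markers, 5, 5, 0 and 7 had a promoter peak of any height, and of the 12 housekeeping genes 3, 3, 3 and 10 did. Neuron markers numbered 0, 1, 1 and 3 of 5, oligodendrocyte markers 0, 1, 0 and 4 of 5, astrocyte markers 2, 1, 1 and 4 of 5, microglia markers 2, 0, 0 and 3 of 5 and mural cell markers 1, 0, 1 and 2 of 5. Immediate early genes with a promoter peak numbered 9, 4, 3 and 20 of 20, and abundant nuclear RNAs 3, 3, 3 and 10 of 10. KO2, the library with the most peaks, had the highest count in all 9 lists, and KO1, with the fewest, had none of the endothelial markers.

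The tallest peaks were shared among libraries more often than all peaks. Of the 849 loci, 233 (27.4%) were in the tallest 500 of all 4 libraries, 107 of 3, 171 of 2 and 338 of 1. A peak of any height was called in all 4 libraries at 440 loci. Between pairs of libraries, 60.6% to 75.8% of the 500 of one were overlapped by the 500 of the other. WT2 covered 73% of the 500 of WT1, and WT1 covered 75.8% of those of WT2, the highest shares of the 12. KO1 and KO2 covered 63.8% of each other, less than the 69% and 72% between WT1 and KO1. The mean over pairs of 1 group was 5.05 percentage points above the mean over pairs from different groups, the highest of the 3 ways to pair the libraries. Because pileup chose the lists, this excess is a description with no test. Without WT2 the excess turned to -2.7, and over the libraries left out it ran up to 12.05.

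Most of the tallest peaks had a peak of some height in the other lists, with shares that lay above those of the next 500 peaks and further above those of all peaks. For WT1 the share was 83.2% by WT2, 82.6% by KO1 and 83% by KO2, against 12.9%, 7.5% and 25.6% of all its peaks. For WT2 it was 93.8% by WT1, 81.6% by KO1 and 87% by KO2, against 25.9%, 10.9% and 36.7%. For KO1 it was 88.6% by WT1, 74.2% by WT2 and 88% by KO2, against 16.9%, 12.2% and 29.3%. By each partner the lowest share was that of KO2, with 75% by WT1, 69.8% by WT2 and 72.6% by KO1, against 8.57%, 6.13% and 4.36%. Among the next 500 peaks the shares, in the same order of partners, were 63.4%, 56.8% and 58.4% for WT1 and 69.4%, 41.6% and 54% for WT2. They were 72.4%, 50.2% and 70.4% for KO1 and 42.4%, 39.8% and 36% for KO2.

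The loci found in all 4 lists were more often near centromeres than those in 1 list. Of the 233 in all 4 lists, 36.1% lay within 5 Mb of a gap and 4.29% were single-copy, against 7.1% and 15.7% of the 338 in 1 list. The single-copy contrast rested on KO2, since without the loci of KO2 alone 5.56% of 216 loci in 1 list were single-copy, while 7.87% were near a gap. Single libraries differed in what they alone held. The 122 loci of KO2 alone included 41 of single-copy sequence and 39 at least 50% soft-masked. The 89 of KO1 alone included 4 and 38, the 52 of WT1 alone 3 and 33, and the 75 of WT2 alone 5 and 56. The 64 loci of both old WT Cre libraries and no young EC-K4KO list included 55 that were at least 50% soft-masked, and the 26 of both young EC-K4KO libraries and no old WT Cre list included 7.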

How the data were processed

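Pol II ChIP-seq peak lists of 4 libraries of brain ECs were used, 2 per group. According to the methods, reads were trimmed with TrimGalore, aligned to mm10 with Bowtie2 in local mode and stripped of duplicates with Picard, while the file headers show that the peak caller kept every duplicate it was given and name another MACS2 release than the methods. Calling was in paired-end mode, and at most 500500 fragments of up to 1000 bp with different ends can cover 1 base. In WT1, WT2 and KO1, 4, 2 and 1 peaks were taller than that, so fragments with the same ends remain there. Whether such fragments are copies of 1 molecule, and whether they remain at lower peaks, was not settled. The authors called peaks with MACS version 2.2.7.1 (file headers) at a q-value of 0.01, per library and without a control. The deposited pileup is a signal in fragments at the summit, not scaled between libraries. The deposited fold enrichment is a ratio to background estimated nearby in that library. The deposited −log10 p and −log10 q values belong to each peak. The narrow peak and summit files hold the same positions and were not used further.

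The tallest 500 peaks of each library on chromosomes 1 to 19 and X were taken by pileup. Soft-masked bases and 31-mers were read from RefSeq GRCm38.p6, start sites from the GENCODE M21 basic annotation and genes from RefSeq. Pileups were divided by the fragments of the library in the file headers, 65734178, 27455452, 35227929 and 22705175 (WT1, WT2, KO1, KO2). Loci were joined into families at 10% shared 21-mers by single linkage and into blocks at gaps of up to 100 kb. Shares of peaks were compared between groups by exact permutation of the libraries, and Clopper-Pearson intervals cover counting error only. Python 3.11.15, numpy 2.4.6, pandas 2.3.3, scipy 1.17.1, numba 0.67.0 and matplotlib 3.10.9 were used. In simulated sequence, 6 of 6 planted features were recovered. Named are the loci of the 5 tallest peaks of any library, genes with single-copy promoter peaks (those in at least 2 libraries, or the 5 tallest of a library), listed genes with a promoter peak among the 500, and RNA genes at loci in all 4 lists, up to 10 by rank. Mvd, the lowest of the single-copy promoter peaks of KO2, falls outside these rules. Other loci, named for a family or block or as exceptions, were chosen after their values were seen. The members, gene lists, families and blocks were chosen with earlier results of these data known, and the values without the Chl1 locus or without KO2 alone were added after seeing the data. Alternatives were the 250 or 1000 tallest peaks, ranking by fold enrichment, other windows and limits, and leaving out each library.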

Additional observations from a re-analysis of the deposited data

Results flagged for a closer look

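Tall peaks also lay on sequences outside chromosomes 1 to 19 and X, which the comparisons do not use. Peaks at least as tall as the 500th peak of the library numbered 197 in WT1, 178 in WT2, 194 in KO1 and 166 in KO2. Unplaced contigs held 165, 147, 170 and 128 of them, chromosome Y 32, 31, 24 and 30, and mitochondrial DNA 0, 0, 0 and 8. Their summit pileups summed to 0.938%, 1.05%, 0.309% and 0.25% of fragments, higher in both old WT Cre libraries than in both young EC-K4KO libraries, a difference that was not tested.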

How the results depend on the processing

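No paired analysis was possible because no model is fitted to these values, and the replicate numbers do not tie a library of one group to one of the other. Without the tallest locus the groups differed in summed pileup by 7.71 percentage points of fragments, against 20.1 with it. Loci in all 4 lists numbered 147 with the 250 tallest peaks and 132 with the 500 highest in fold enrichment, against 233. Loci higher in both young EC-K4KO libraries numbered 64 with the summed pileups taken out of the denominator and 63 with the 250 tallest, against 103, and both of these alternatives were added after seeing the data. The 250 tallest make a shorter list, which gives fewer loci by construction, and 63 of 147 loci are 42.9%, against 44.2% of the 233. The excess of overlap within groups ran from -2.7 to 12.05 percentage points when each library was left out, and was negative without WT2. The difference between the groups in the sum of the loci without satellite sequence turned from 0.135 to -0.139 percentage points of fragments without the Chl1 locus, an alternative added after seeing the data. With the 1000 tallest peaks, the 500 highest in fold enrichment and the 250 tallest, the soft-masked difference was 19.5, 11.9 and 7.8 percentage points, against 11.7. The single-copy sequence difference was -10.9, -11.1 and -1.4, against -3.9. The protein-coding promoter difference was -6.35, -6.9 and 0, against -0.6, and that of single-copy promoters was -4.8, -6.1 and 0, against -0.6. Apart from the shorter list, the cause was not tested in any of these cases. The soft-masked difference ran from 7.4 to 16 percentage points and the centromeric difference from -3.5 to -0.3 when each library was left out. With 2 libraries per group the exact permutation test could reach no p below 0.333. Pileups near rank 500 are 37 to 75 fragments and do not follow the depth of the libraries, and places at the limit were set by ties.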
